A study of Mus musculus with 6 samples.

Results

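A set of 10 genes of platelet-derived growth factor (PDGF) signalling and of stromal cells were examined in embryonic submandibular glands (eSMGs). They were chosen by gene symbol, as 10 of the 23260 gene lines of the count tables: the ligands Pdgfa, Pdgfb and Pdgfc, the receptors Pdgfra and Pdgfrb, the stromal cell markers Vim, Postn, Dcn and Lum, and the smooth muscle actin gene Acta2. All 10 had a line in the count tables of all 6 libraries, and 9 passed edgeR's filter on low counts, with Pdgfb left out. Whole eSMGs of ICR mouse embryos at embryonic day 14 (E14) were cultured on membranes and collected at 6 h, either as control or with 50 µM AMD3100, a bicyclam that blocks the chemokine receptor CXCR4. Each group had 3 tubes, of up to 10 pooled glands each, and RNA was read as 3′ mRNA libraries, in which reads come from the end of each transcript. No transgene or mutation was used, both groups were of the same strain and age, and the agent in the control medium is not given in the sources used here.

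PDGFs are secreted dimers that bind the receptor tyrosine kinases PDGFRα and PDGFRβ, and bound receptors pair and phosphorylate each other, which recruits adaptors, lipid kinases and phosphatases. PDGFRα is carried mainly by mesenchymal cells, and PDGFRβ mainly by the cells that wrap blood vessels. In branching glands the mesenchyme around the epithelial buds supplies growth factors and matrix, and PDGF signalling to salivary gland mesenchyme is known to act on its FGF ligands. Vim encodes an intermediate filament protein, Postn, Dcn and Lum encode matrix proteins, and Acta2 encodes an actin of smooth muscle and myofibroblasts that is also made by immature striated muscle.

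The libraries held 11532946, 13127539 and 10869528 counts in control replicates 1, 2 and 3, and 14393031, 11358828 and 9051595 counts in AMD3100 replicates 1, 2 and 3. Levels are given as CPM (counts scaled to the library size after TMM normalization), and a gene with 3 counts stood at 0.173 to 0.368 CPM, a floor that covers counting error only. The study's statistics section speaks of independent experiments in triplicate, without naming the sequencing, and the labels do not say that the tubes came from separate litters or cultures. The p-values measure the spread between these tubes, which may in part be technical. Because each library is a whole-gland pool, fewer cells of a type and less RNA per cell cannot be told apart.

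The pools had genes of the tissue named in their labels. Of the listed mesenchyme and fibroblast genes 32 of 33 passed the filter, and of the listed epithelial genes 15 of 16. So did 13610 of all 23260 gene lines, 10 of 10 listed skeletal muscle genes, 9 of 9 leukocyte genes and 4 of 6 cartilage genes. Passing the filter thus does not tell the gland from other tissues. Osr1, a transcription factor of gland mesenchyme, stood at 184, 172 and 170 CPM in the control and 148, 140 and 161 CPM in the AMD3100 libraries. Skeletal muscle genes were also present, and far more so in both replicate 3 libraries. The 10 listed skeletal muscle genes summed to 367, 377 and 2099 CPM in control replicates 1 to 3 and to 247, 212 and 2847 CPM in AMD3100 replicates 1 to 3. Values without both replicate 3 libraries are therefore also given for 7 of the 9 members tested, and for Pdgfc and Pdgfra they were −0.12 and −0.13 on the log2 scale, beside −0.11 and −0.14 with all libraries.

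No difference between AMD3100-treated and control eSMGs was detected in any of the 9 genes tested. With edgeR's quasi-likelihood test, 0 of the 9 had a fold change over 1.5 with an unadjusted p-value under 0.05, where 1.68% of the 13610 genes tested did (54 higher and 174 lower). The balance turned without control replicate 3, with 316 higher and 231 lower. More genes were lower than higher when any other single library was left out, with 101 higher and 350 lower without AMD3100 replicate 3. All 9 had adjusted p-values (Benjamini-Hochberg) of 1.0, and 0% of all genes passed an adjusted p-value of 0.05. The ranges of both groups overlapped for all 9, while for 7.44% of all genes the groups did not overlap. Of the 9 genes, 5 had a higher and 4 a lower fitted level in AMD3100-treated eSMGs, with a median log2 fold change of 0.01, beside 0.02 for all genes tested, of which 52.2% were higher. The median of the 9 ran from −0.16 without control replicate 1 to 0.17 without AMD3100 replicate 1. With replicate number as a block, 0 of the 9 again passed the fold and unadjusted p thresholds, which 4.39% of all genes passed, and 0.0220% of all genes passed an adjusted p-value of 0.05. Without both replicate 3 libraries 0 of the 9 passed the fold and unadjusted p thresholds, where 4.39% of the 13948 genes tested in that fit passed. DESeq2 gave an adjusted p-value under 0.05 for 0.0274% of the 18267 genes it tested and for 0 of the 10 members.

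**Figure D1:**
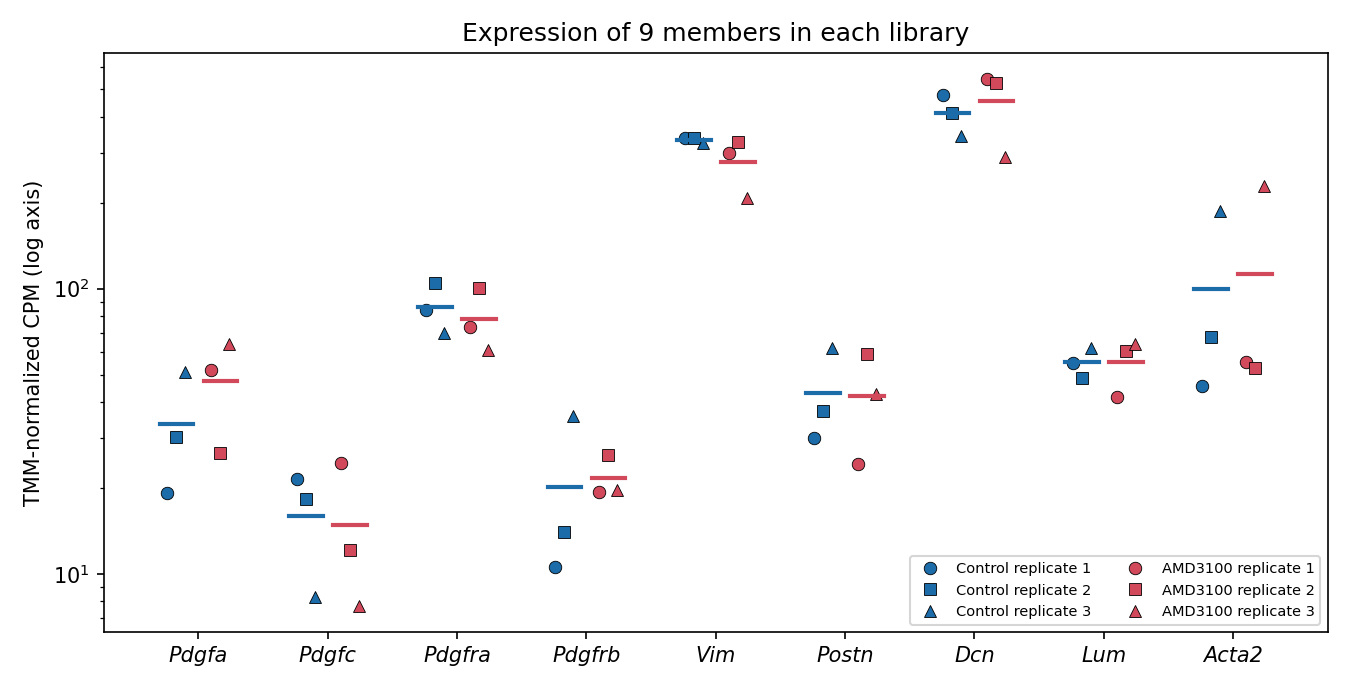
Normalized level (CPM, log axis) of each of the 9 genes tested in each library, with control in blue and AMD3100 in red, symbols by replicate number and lines at the mean of the 3 libraries of a group. The groups overlap for every gene, and Acta2 is highest in both replicate 3 libraries (187 and 229 CPM).

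Pdgfa encodes the chain of PDGF-AA, a ligand of PDGFRα that epithelia often make, and it lies on chromosome 5 (138976014 to 139000792, GRCm38.p6, as are all positions here). It stood at 19.3, 30.2 and 51.0 CPM in control replicates 1, 2 and 3, and at 51.7, 26.5 and 64.0 CPM in AMD3100 replicates 1, 2 and 3. AMD3100 replicates 1 and 3 were above all controls and AMD3100 replicate 2 was below 2 of them, so that the groups overlapped. Means were 33.5 ± 16.1 CPM in control and 47.4 ± 19.1 CPM in AMD3100-treated eSMGs (SD, n = 3 each). Its log2 fold change of 0.50 was the furthest from 0 among the 9 (SE 0.45, 95% interval −0.52 to 1.52, edgeR adjusted p = 1.0), and it stayed within the spread between replicates. It was 0.66 (SE 0.38, edgeR adjusted p = 0.914) without both replicate 3 libraries.

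Pdgfc encodes the chain of PDGF-CC, which must be cut by a protease before it binds (chromosome 3, 81036416 to 81214040). Its levels were 21.5, 18.3 and 8.28 CPM in control replicates 1, 2 and 3, and 24.4, 12.2 and 7.74 CPM in AMD3100 replicates 1, 2 and 3. In both groups replicate 3 was lowest and replicate 1 highest. The means of 16.0 ± 6.88 and 14.8 ± 8.64 CPM (SD, n = 3 each) gave a log2 fold change of −0.11 (SE 0.53, 95% interval −1.32 to 1.097, edgeR adjusted p = 1.0). The Pdgfa count divided by the Pdgfc count, which needs no normalization, was 0.898, 1.65 and 6.16 in the control libraries and 2.12, 2.17 and 8.27 in the AMD3100 libraries. This ratio was highest in replicate 3 of both groups, and each AMD3100 library was above the control of the same number. No difference between the groups was detected in an exact two-sided permutation test (p = 0.5, where 3 against 3 allows no p below 0.1). That test did not use the replicate numbers.

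Pdgfb, the chain of PDGF-BB that endothelium releases to draw in pericytes (chromosome 15, 79995865 to 80024614), was near absent. Its counts were 0, 3 and 2 in control replicates 1, 2 and 3, and 0 in each AMD3100 library. Every library was at or under the floor of 3 counts, and no fold change is given. Pdgfd, the remaining PDGF ligand gene, had 3 counts in AMD3100 replicate 3 and 0 counts elsewhere. Endothelial genes were present, with 9 of 10 listed genes past the filter and a summed level of 49.5 to 90.0 CPM, among them the receptor and adhesion genes Eng, Kdr and Pecam1, with log2 fold changes of 0.22 (SE 0.39), 0.77 (SE 0.51) and −0.85 (SE 0.80).

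Among the proteases that process PDGF ligands, Plat was the gene that passed the unadjusted thresholds. Plat encodes tissue plasminogen activator, which is known to cut PDGF-CC. It stood at 4.20, 10.1 and 10.8 CPM (48, 138 and 108 counts) in control replicates 1, 2 and 3, and at 0.230, 2.67 and 1.96 CPM (4, 29 and 16 counts) in AMD3100 replicates 1, 2 and 3. Every AMD3100 library was below every control library, with means of 8.34 ± 3.60 and 1.62 ± 1.26 CPM (SD, n = 3 each). On the log2 scale the fold change was −2.37 (SE 0.92, 95% interval −4.45 to −0.30, edgeR adjusted p = 1.0), and with replicate number as a block it was −2.74 (edgeR adjusted p = 0.491). It did not pass the adjusted threshold, and the unadjusted call was lost without control replicate 2 (log2 fold change −2.22), without control replicate 3 (−2.14) and without both replicate 3 libraries (−2.32).

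Plau encodes urokinase, which is known to cut PDGF-DD. It was counted 25, 33 and 74 times in the control and 10, 0 and 16 times in the AMD3100 libraries, again with no overlap, and its log2 fold change of −2.25 did not pass (SE 1.41, 95% interval −5.45 to 0.96). Furin and Pcsk5, proprotein convertases that cut PDGF-A and PDGF-B precursors, had log2 fold changes of −0.12 (SE 0.46) and 0.33 (SE 0.43). St14, which encodes the protease matriptase, had one of 0.29 (SE 0.47). Of the 6 genes of this list 5 were tested, and 1 was lower by both unadjusted thresholds while 0 were higher.

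**Figure D2:**
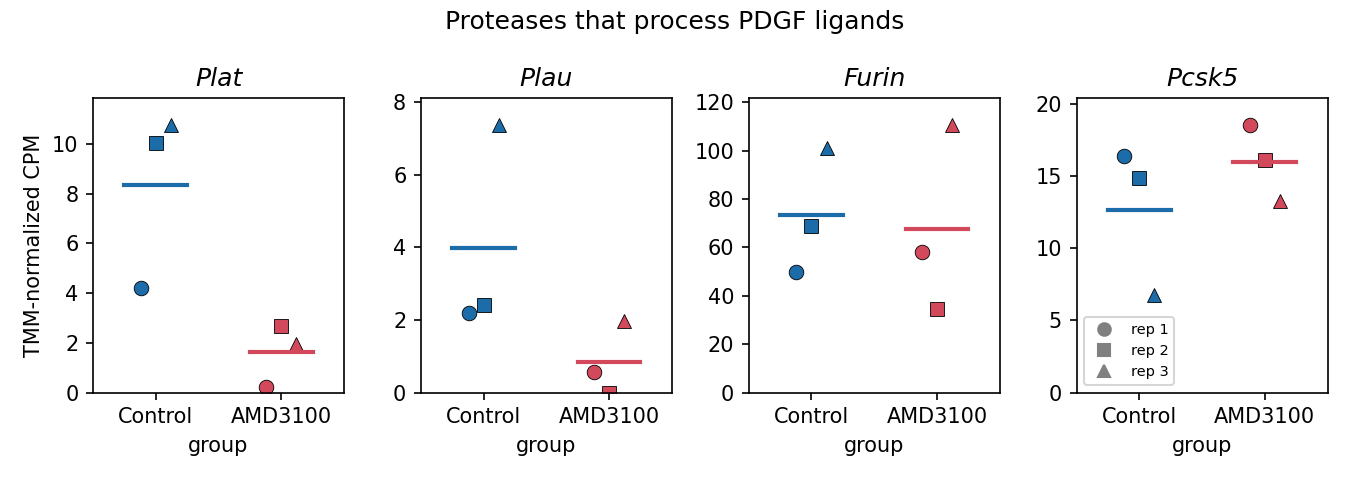
Level (CPM, linear axes from 0) of genes whose products process PDGF ligands, in each control and AMD3100 library, with symbols by replicate number and lines at the group means. Plat and Plau are lower in all 3 AMD3100 libraries than in all 3 controls, at counts of 48 to 138 against 4 to 29 for Plat.

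Pdgfra, the receptor gene of the mesenchyme (chromosome 5, 75151322 to 75198206), varied little. Its levels were 84.4, 105 and 70.1 CPM in control replicates 1, 2 and 3, and 73.4, 101 and 60.9 CPM in AMD3100 replicates 1, 2 and 3. Replicate 2 was highest and replicate 3 lowest in both groups, and each AMD3100 library was below the control of the same number. All 3 same-numbered pairs went in the same direction for 30.7% of the 13610 genes tested, so this shows nothing particular to Pdgfra. Means were 86.4 ± 17.4 and 78.4 ± 20.4 CPM (SD, n = 3 each), with a log2 fold change of −0.14 (SE 0.31, 95% interval −0.84 to 0.56, edgeR adjusted p = 1.0). With replicate number as a block the log2 fold change was −0.15 with an SE of 0.15 (edgeR adjusted p = 0.889).

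Pdgfrb, the receptor gene of pericytes and vascular smooth muscle (chromosome 18, 61045127 to 61085067), was spread more widely among controls. It stood at 10.6, 14.0 and 35.8 CPM in control replicates 1, 2 and 3, and at 19.4, 26.1 and 19.6 CPM in AMD3100 replicates 1, 2 and 3. Control replicate 3 was above all AMD3100 libraries, and control replicates 1 and 2 were below all of them. The means of 20.1 ± 13.7 and 21.7 ± 3.80 CPM (SD, n = 3 each) gave a log2 fold change of 0.11 (SE 0.48, 95% interval −0.98 to 1.20, edgeR adjusted p = 1.0). Without both replicate 3 libraries it was 0.88 (SE 0.43, edgeR adjusted p = 0.879).

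The count of Pdgfra divided by that of Pdgfrb was 7.97, 7.48 and 1.96 in control replicates 1, 2 and 3, and 3.79, 3.87 and 3.10 in AMD3100 replicates 1, 2 and 3. The AMD3100 libraries lay inside the range of the controls. The mean log2 ratio differed by −0.45, and this was not larger than the spread between replicates (exact two-sided permutation test, p = 0.5, smallest possible 0.1). The 3 genes with levels most like those of Pdgfra over the 6 libraries were Slc12a2, Eif2ak1 and Rfwd2, with a root mean square difference of centred log2 CPM of 0.081, 0.085 and 0.093, where the median of the 6065 genes compared was 0.47. Those most like Pdgfrb were Timm9, Atg2b and Rhot2, with 0.15, 0.16 and 0.19 against a median of 0.64.

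Cell surface partners of the receptors were measured beside them. Lrp1, a large endocytic receptor that PDGFRβ phosphorylates, and Nrp1, a co-receptor, had log2 fold changes of −0.21 (SE 0.38) and −0.30 (SE 0.32). Pdgfrl, a receptor-like gene, had one of 0.55 (SE 1.23), and 0 of these 3 passed the thresholds in either direction. Of the 22 adaptors and enzymes recruited to activated receptors 0 passed, with 13 higher, 9 lower and a median log2 fold change of 0.06. With each library left out in turn, this median ran from −0.08 without control replicate 3 to 0.15 without AMD3100 replicate 3. Stat3, the most abundant of them, stood at 204, 220 and 228 CPM in the control and 197, 204 and 221 CPM in the AMD3100 libraries. Jak1, a cytoplasmic tyrosine kinase, and Pik3r1, a regulatory subunit of PI3 kinase, followed by mean level over the 6 libraries, with log2 fold changes of 0.14 (SE 0.45) and 0.35 (SE 0.30). Pik3r2, another such subunit, and Plcg1, a phospholipase, were higher in every AMD3100 than in every control library, at log2 fold changes of 0.26 (SE 0.27) and 2.79 (SE 1.497), neither of which passed. Plcg1 rested on few reads, with 0, 7 and 7 counts in the control and 41, 56 and 8 counts in the AMD3100 libraries.

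Genes that end receptor signals and early targets likewise gave 0 calls. Of 7 phosphatase and ubiquitin ligase genes 3 were higher and 4 lower, with a median log2 fold change of −0.11. With each library left out in turn, this median ran from −0.37 without AMD3100 replicate 2 to 0.04 without AMD3100 replicate 3. Ptpn1, a phosphatase that acts on PDGF receptors, had one of 0.05 (SE 0.28), and the phosphatase genes Ptpn12 and Acp1 had values of 0.15 (SE 0.35) and −0.41 (SE 0.34). Of the 5 transcription factor genes of the early response 3 were higher and 2 lower, and Srf, the serum response factor, had a log2 fold change of 0.16 (SE 0.39), beside −0.47 (SE 0.66) for Egr1 and −0.53 (SE 0.41) for Junb. With replicate number as a block, Stat5b (log2 fold change −0.84) and Egr1 (−0.61) were lower by the unadjusted thresholds, and neither passed after adjustment. Without both replicate 3 libraries neither passed the unadjusted thresholds, at log2 fold changes of −0.90 (SE 0.66) for Stat5b and −0.88 (SE 0.51) for Egr1.

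Fgf10, the mesenchymal ligand that drives salivary bud growth, stood at 111, 79.2 and 52.5 CPM in control replicates 1, 2 and 3, and at 88.2, 91.0 and 44.8 CPM in AMD3100 replicates 1, 2 and 3. Replicate 3 was lowest in both groups, and the log2 fold change was −0.12 (SE 0.39). Fgf7, a related ligand, had a log2 fold change of 0.42 (SE 0.46), and Fgf3 had 0 counts in all 6 libraries.

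Vim (chromosome 2, 13574311 to 13582826) marks mesenchymal cells. It stood at 338, 338 and 325 CPM in control replicates 1, 2 and 3, and at 299, 327 and 208 CPM in AMD3100 replicates 1, 2 and 3. The controls lay close together and AMD3100 replicate 3 was the lowest, while AMD3100 replicate 2 was above control replicate 3. Means were 334 ± 7.68 and 278 ± 62.2 CPM (SD, n = 3 each), with a log2 fold change of −0.26 (SE 0.29, 95% interval −0.91 to 0.38, edgeR adjusted p = 1.0). Each AMD3100 library was below the control of its number, where all 3 pairs went in the same direction for 30.7% of all genes tested. With the block the log2 fold change was −0.29 (SE 0.14, edgeR adjusted p = 0.777), the lowest adjusted p of any member under any setting. Leaving out both replicate 3 libraries gave −0.12 (SE 0.13, edgeR adjusted p = 0.993).

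Postn, which encodes the matrix protein periostin (chromosome 3, 54359267 to 54391041), stood at 30.03, 37.1 and 61.8 CPM in control replicates 1, 2 and 3, and at 24.3, 59.1 and 42.6 CPM in AMD3100 replicates 1, 2 and 3. The highest and the lowest library thus were in different groups but the ranges overlapped widely. The means were 43.0 ± 16.7 and 42.0 ± 17.4 CPM (SD, n = 3 each), and the log2 fold change was −0.03 (SE 0.41, 95% interval −0.98 to 0.91, edgeR adjusted p = 1.0). The genes most like Postn over the 6 libraries were Bub3, Tmem222 and Abhd13 (root mean square differences of 0.17, 0.18 and 0.18, against a median of 0.59).

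Dcn and Lum encode decorin and lumican, small leucine-rich proteoglycans that bind collagen fibrils and are neighbours on chromosome 10 (97479500 to 97518163 and 97565501 to 97572703). Dcn stood at 477, 414 and 344 CPM in control replicates 1, 2 and 3, and at 542, 529 and 290 CPM in AMD3100 replicates 1, 2 and 3. Replicate 3 was lowest in both groups, and the other AMD3100 libraries were above all controls. The Dcn means of 412 ± 66.9 and 454 ± 142 CPM (SD, n = 3 each) gave a log2 fold change of 0.14 (SE 0.33, 95% interval −0.61 to 0.89, edgeR adjusted p = 1.0). Without both replicate 3 libraries it was 0.26 (SE 0.12, edgeR adjusted p = 0.879).

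Lum stood at 54.8, 48.4 and 62.1 CPM in control replicates 1, 2 and 3, and at 41.6, 60.4 and 64.1 CPM in AMD3100 replicates 1, 2 and 3. Its highest and lowest libraries were both AMD3100-treated, and the controls lay between them. The means of 55.1 ± 6.85 and 55.4 ± 12.03 CPM (SD, n = 3 each) gave a log2 fold change of 0.01 (SE 0.29, 95% interval −0.65 to 0.66, edgeR adjusted p = 1.0). Of the 8 other proteoglycan genes of this family that were tested 0 passed, with 2 higher and 6 lower. Bgn, which encodes biglycan, held 90.8% of their summed level, at 146, 173 and 632 CPM in control replicates 1, 2 and 3, and 158, 188 and 694 CPM in AMD3100 replicates 1, 2 and 3. Kera, the gene of keratocan, had a log2 fold change of −0.66 (SE 0.39), and Ogn, the gene of osteoglycin, one of −0.69 (SE 0.60), and neither passed.

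The wider list of mesenchyme genes gave 0 of 32 past the unadjusted thresholds, with 15 higher, 17 lower and a median log2 fold change of −0.01. The median ran from −0.23 without control replicate 3 to 0.12 without control replicate 1. Col3a1, a fibrillar collagen gene and the highest of them in replicates 1 and 2 of both groups, stood at 1403, 1421 and 406 CPM in control replicates 1, 2 and 3, and at 1409, 1393 and 415 CPM in AMD3100 replicates 1, 2 and 3. Sparc, which encodes a collagen-binding protein, was the highest in both replicate 3 libraries, at 827 CPM in control and 924 CPM in AMD3100. Sparc and Col1a2, a gene of type I collagen, had log2 fold changes of 0.13 (SE 0.28) and −0.11 (SE 0.58). Osr1 was lower in every AMD3100 library than in every control (log2 fold change −0.23, SE 0.26) and Mfap5, a microfibril gene, was higher (1.12, SE 0.51), and neither passed. Without both replicate 3 libraries 2 of 32 were higher and 0 lower by the unadjusted thresholds, which 4.39% of all genes tested in that fit passed. The 2 higher genes were Mfap5 (log2 fold change 1.51, SE 0.59, edgeR adjusted p = 0.819) and Fbln2, which encodes the matrix protein fibulin-2 (0.91, SE 0.33, edgeR adjusted p = 0.782). With the block, Twist1, a mesenchymal transcription factor gene, was lower by the unadjusted thresholds (log2 fold change −0.97, edgeR adjusted p = 0.703), but it did not pass without both replicate 3 libraries (−0.84).

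**Figure D3:**
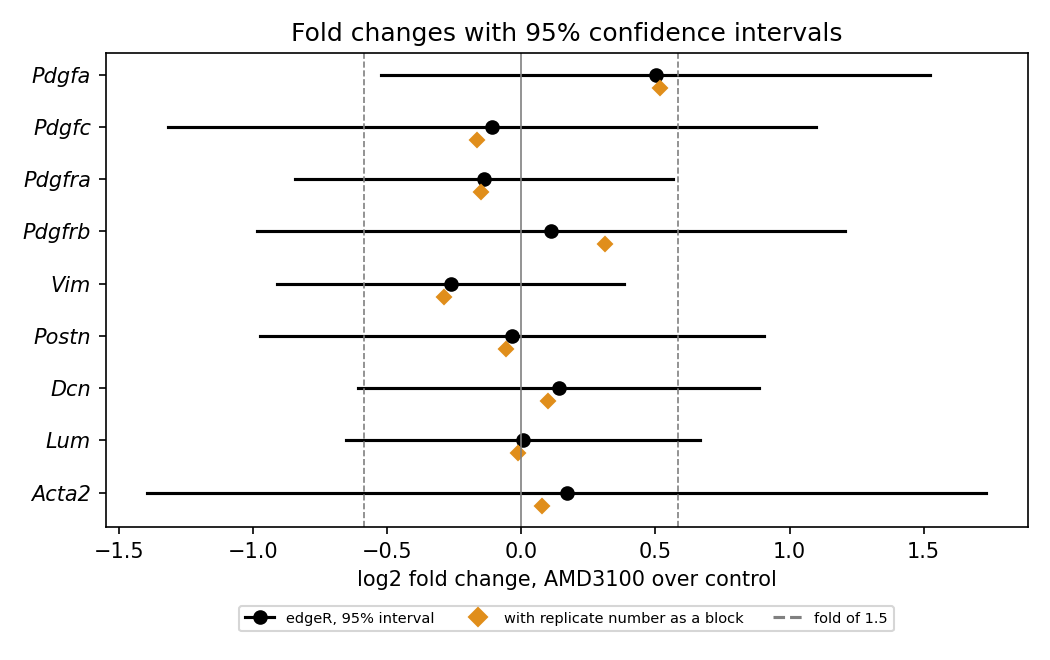
Log2 fold change (AMD3100 over control) of the 9 genes tested, with 95% intervals from edgeR as black lines, the values with replicate number as a block as orange diamonds, and dashed lines at a fold of 1.5 in each direction. All 9 intervals include 0, and the largest estimate is that of Pdgfa (0.50).

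Acta2 (chromosome 19, 34240336 to 34255585) varied most among the 9 genes, over a range of 2.32 on the log2 scale. It stood at 45.4, 67.5 and 187 CPM in control replicates 1, 2 and 3, and at 55.5, 52.6 and 229 CPM in AMD3100 replicates 1, 2 and 3. Replicate 3 was the highest in both groups, and the other 4 libraries lay within 45.4 to 67.5 CPM. The means of 100 ± 76.2 and 112 ± 101 CPM (SD, n = 3 each) gave a log2 fold change of 0.17 (SE 0.69, 95% interval −1.39 to 1.73, edgeR adjusted p = 1.0). With the block the SE dropped to 0.18 and the log2 fold change was 0.08 (edgeR adjusted p = 0.953). Its direction depended on replicate 3, with a log2 fold change of −0.91 without AMD3100 replicate 3 and 1.01 without control replicate 3, and neither value passed.

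Levels of several genes differed more between the replicate 3 libraries and the others than between the groups. Of the 9 genes, 2 (Lum and Acta2) were above and 3 (Pdgfc, Pdgfra and Dcn) below all 4 other libraries in both replicate 3 libraries, beside 23.1% of all genes above and 21.1% below. These counts show nothing particular to the 9 genes. The mean of Acta2 in the replicate 3 libraries was 3.77 times that in the other 4 (208 against 55.3 CPM), that of Lum 1.23 times, and that of Dcn 0.646 times. With 2 libraries, 1 per group, the replicate 3 levels are given as a description with no test.

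Genes known from muscle were high in the same libraries as Acta2. Myog, a transcription factor gene of differentiating muscle, stood at 41.1, 39.99 and 521 CPM in control replicates 1, 2 and 3, and 13.9, 9.95 and 485 CPM in AMD3100 replicates 1, 2 and 3. In total 9 of the 10 listed skeletal muscle genes were above the other 4 libraries in both replicate 3 libraries, and Ttn was the exception. Myog held 18.1% of their level summed over the 6 libraries and led the list in both replicate 3 libraries, whereas Actc1 led it in the other 4, at 130 and 127 CPM in control and 92.4 and 66.7 CPM in AMD3100 replicates 1 and 2. The replicate 3 mean was 14.43 times that of the others for Des, 8.44 times for Acta1, 3.23 times for Actc1 and 11.4 times for Mylpf, which encode desmin, the skeletal and cardiac actins and a myosin light chain. Of the 11 smooth muscle and pericyte genes tested, 3 were above, 2 below and 6 within the range of the other 4 libraries in replicate 3. Those above were Des, Myl9, a myosin light chain gene (80.8 against 47.7 CPM, 1.69 times), and Tpm2, a tropomyosin gene (79.7 against 45.8 CPM, 1.74 times). Those below were Tagln, which encodes transgelin, and Cspg4, a proteoglycan gene of pericytes (1.80 against 5.55 CPM). Their list summed to 208, 186 and 421 CPM in control and 159, 185 and 479 CPM in AMD3100 replicates 1, 2 and 3, and Des, which led it in both replicate 3 libraries (192 and 240 CPM), is also on the skeletal muscle list. In the other 4 libraries Des stood at 10.3 to 20.5 CPM, and Tpm2 led in the controls and Myl9 in the AMD3100 libraries. Tagln stood at 7.62, 7.50 and 2.99 CPM in the control and 8.12, 7.83 and 1.72 CPM in the AMD3100 libraries. Replicate 3 was the lowest in both groups. Myh11, the smooth muscle myosin gene, had 0, 15 and 0 counts in control and 12, 25 and 3 counts in AMD3100 libraries, and Rgs5, a pericyte gene, had 0 counts in 4 libraries and 13 and 5 counts in replicate 3 of control and AMD3100. How far muscle in the tubes contributed to the Acta2 level was not tested.

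Other stromal genes also followed the replicate number. Bgn was 3.99 times as high in the replicate 3 libraries as in the others, while Col1a1, Col1a2 and Col3a1 were 2.30, 3.31 and 3.43 times as high in the others. Col6a3, a chain gene of type VI collagen, went the other way, at 352 against 209 CPM (1.68 times). The 32 mesenchyme genes were split, with 6 above, 12 below and 14 within the range of the other 4 libraries. Among epithelial genes 8 of 15 were below and 0 above in both replicate 3 libraries. The genes most like Acta2 over the 6 libraries were Isoc2a, S100a6 and Pgd, each with a root mean square difference of 0.15 of centred log2 CPM against a median of 0.92.

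**Figure D4:**
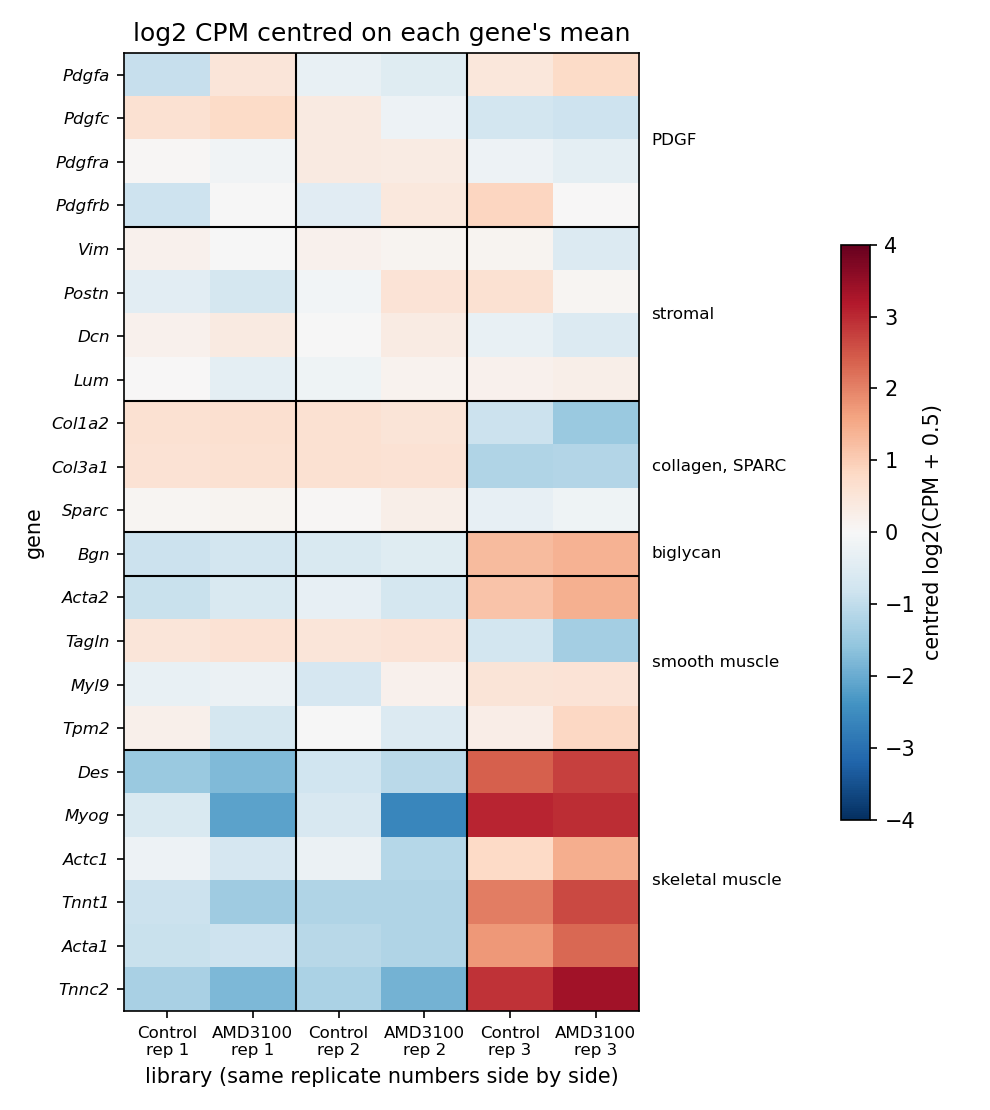
Log2(CPM + 0.5) of the members and of selected muscle and stromal genes in the 6 libraries, centred on each gene's mean over the libraries, with blue below and red above that mean on a scale from −4 to 4. The replicate 3 columns of both groups stand apart, with Acta2, Bgn and the skeletal muscle genes high and Col1a2, Col3a1, Dcn and Tagln low.

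The promoters of Acta2 and of the muscle genes Acta1 and Myog, which were high together in the replicate 3 libraries, are shown for the letters that muscle regulatory factors such as the product of Myog are known to bind. Each line holds 250 bases before the annotated start in the RefSeq promoter table (GRCm38.p6), on the strand of the gene, and capitals mark the E box CANNTG, which reads the same on both strands. The start used for Acta2 lies inside its gene span, so that its window overlaps the gene. The windows are Acta2 at chr19:34255374-34255623 on the minus strand, Acta1 at chr8:123894776-123895025 on the minus strand and Myog at chr1:134289754-134290003 on the plus strand.
Acta2: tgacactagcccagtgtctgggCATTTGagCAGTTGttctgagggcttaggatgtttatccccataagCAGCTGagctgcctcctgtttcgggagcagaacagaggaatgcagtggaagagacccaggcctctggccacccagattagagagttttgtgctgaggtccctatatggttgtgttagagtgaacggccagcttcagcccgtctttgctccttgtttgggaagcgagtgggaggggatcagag
Acta1: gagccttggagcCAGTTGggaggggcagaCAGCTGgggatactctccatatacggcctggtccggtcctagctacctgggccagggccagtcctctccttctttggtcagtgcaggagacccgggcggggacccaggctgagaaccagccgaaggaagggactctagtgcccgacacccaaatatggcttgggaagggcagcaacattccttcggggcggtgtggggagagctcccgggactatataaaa
Myog: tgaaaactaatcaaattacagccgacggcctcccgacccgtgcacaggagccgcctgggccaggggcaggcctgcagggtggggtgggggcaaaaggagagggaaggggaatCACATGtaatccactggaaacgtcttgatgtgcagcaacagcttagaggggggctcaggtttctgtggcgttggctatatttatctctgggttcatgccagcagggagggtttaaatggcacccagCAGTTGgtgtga
Acta2 had 3 such matches and Acta1 and Myog 2 each. Of the 32851 windows of the same length in that table, at least 1 match was held by 66.2%, while 31.8% held at least 2 and 12.2% at least 3, and a match is a description of letters and not a binding site. Of the 10 members 6 had a window in the table, and of these only that of Acta2 is shown. Whether the E boxes bear on the Acta2 level was not tested.

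The reads themselves were not examined. Annotated 3′ ends of the members were checked instead, in another genome build than the mm10 named for the counts. From the last 300 bases of each gene in the supplied mouse genome of build NCBIM37, windows of 50 bases were taken every 25 bases, and 0 of the 11 windows of each of the 10 members had another place in the genome that matched as well within 1 mismatch. Of the other actin genes, whose sequences are close to that of Acta2, Acta1 and Actc1 likewise had 0 such windows, while Actg2, the second smooth muscle actin gene, had 1 of 11, Actb 4 of 11 and Actg1 11 of 11. Plat had 0.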

How the data were processed

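The authors deposited, for each of the 6 libraries, the number of 50 bp single reads per gene symbol as raw counts, without normalization. The submitters' processing notes name Bowtie2, edgeR and mm10, and the counting annotation is not given in the sources used here. Of 23282 lines per library, 44 repeated a symbol, and 22 of these, being exact repeats, were dropped. Rn45s, a ribosomal RNA gene, held 16.2 to 32.5% of the counts.

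Counts were compared with edgeR 4.0.16 (R 4.3.3): TMM, filterByExpr on group (13610 genes kept), the quasi-likelihood test with group as the only term, and Benjamini-Hochberg adjustment over all genes tested. The fits were tested on simulated data, which had less spread between replicates than these libraries and no replicate effect. Libraries of both groups share replicate numbers in the labels. Across genes, deviations from the group means of same-numbered libraries correlated at 0.241, 0.220 and 0.646 for replicates 1, 2 and 3, and those numbers were used for the replicate block. Control replicate 2 with AMD3100 replicate 1 reached 0.259, so that the data separate replicate 3 and do not tell replicates 1 and 2 apart. Alternatives used DESeq2 1.42.0, limma 3.58.1 and the other settings given below.

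The members and gene lists were chosen with earlier results of these data known. Named are all members, and from each list the genes past both unadjusted thresholds and the 3 with the highest mean level over the 6 libraries. For 4 members the 3 genes of at least 20 CPM with the most similar profile are given. Genes named for no overlap between groups, for the block, or in the account of the replicate 3 libraries were chosen after their values were seen. Gene positions and promoters are from RefSeq. The 3′ ends were checked with minimap2 2.31-r1302 on NCBIM37 with GENCODE vM1. Genes named because they passed in the fit without both replicate 3 libraries were chosen after their values were seen.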

Additional observations from a re-analysis of the deposited data

How the results depend on the processing

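All 17 alternatives left 0 of the 9 genes tested past the unadjusted thresholds. The count of all genes with an adjusted p-value under 0.05 was 0 with edgeR (228 at an unadjusted p under 0.05), 5 with DESeq2 and 3 with the replicate block. The count with a fold over 1.5 and an unadjusted p under 0.05 was 228 with edgeR, 479 with DESeq2, 439 by a version of the study's procedure, 598 with the replicate block, 613 without both replicate 3 libraries, and 163 to 547 with each library left out in turn, the highest without control replicate 3 and 451 without AMD3100 replicate 3. Of 153 log2 fold changes of members under the alternatives 129 kept their direction, and the 24 that did not had a size of at most 0.17 in the edgeR fit. With each library left out in turn, Acta2 ranged from −0.91 to 1.01, Dcn from −0.0105 to 0.37, Lum from −0.13 to 0.17, Pdgfc from −0.68 to 0.19, Pdgfra from −0.36 to 0.0205, Pdgfrb from −0.21 to 0.82 and Postn from −0.36 to 0.32, while Pdgfa (0.21 to 0.95) and Vim (−0.39 to −0.10) kept their sign. Without both replicate 3 libraries Postn was 0.30, Lum −0.0260 and Acta2 −0.0694. Lum, at 0.01 in the edgeR fit, was −0.0092 with upper quartile normalization, −0.0268 with limma-voom, −0.00021 by the study's procedure and −0.0110 with the replicate block. The block changed no call among the members, and the causes of these changes were not tested. Pdgfb was at or under the floor of 3 counts in every library and did not pass edgeR's filter, and 3 libraries per group with a common biological coefficient of variation of 0.579 limited every comparison.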

Other observations

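Genes of other cell types in the glands were compared in the same fit. Fabp7, a fatty acid binding protein gene of Schwann cell precursors, was the one gene of 7 neuron and Schwann cell genes past the unadjusted thresholds. It stood at 12.1, 16.9 and 47.2 CPM in control replicates 1, 2 and 3, and at 5.53, 5.44 and 10.7 CPM in AMD3100 replicates 1, 2 and 3, with no overlap. Its log2 fold change was −1.82 (SE 0.58, edgeR adjusted p = 1.0), and without control replicate 3 it was −1.001 and no longer passed. Blocked on replicate number, it was −1.64 (edgeR adjusted p = 0.235). Fabp7 again passed the unadjusted thresholds without both replicate 3 libraries (−1.41, edgeR adjusted p = 0.827). Tubb3, Sox10 and Elavl4, genes of neurons and Schwann cells, had log2 fold changes of 0.23 (SE 0.48), −0.05 (SE 0.72) and −0.22 (SE 0.47).

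Epithelial genes gave 0 of 15 past the thresholds, with 9 higher and 6 lower. Krt15, a keratin gene of epithelial progenitors, stood at 1042, 1012 and 888 CPM in control and 1367, 1016 and 2472 CPM in AMD3100 replicates 1, 2 and 3, and with the block its log2 fold change was 0.62, past the unadjusted thresholds (edgeR adjusted p = 0.703). It was 0.21 without both replicate 3 libraries and did not pass. Cdh1, the gene of E-cadherin, and Cldn4, a tight junction gene, were higher in every AMD3100 than in every control library, at log2 fold changes of 0.55 (SE 0.31) and 0.43 (SE 0.28), and neither passed. Sox9, a transcription factor gene of distal progenitors, had one of 0.20 (SE 0.40).

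Smooth muscle and pericyte genes gave 0 of 11, endothelial genes 0 of 9, leukocyte genes 0 of 9, platelet genes 0 of 3, cartilage genes 0 of 4, red blood cell genes 0 of 6 and skeletal muscle genes 0 of 10 past the thresholds. With the block, Abcc9, a channel subunit gene of pericytes (log2 fold change −0.59), Myog (−1.16) and Myod1 (−2.05) were lower by the unadjusted thresholds, and none of these 3 passed after adjustment. Abcc9 (−0.63) and Myod1 (−2.69) did not pass the unadjusted thresholds without both replicate 3 libraries. In the fit without both replicate 3 libraries, 4.39% of the 13948 genes tested passed the unadjusted thresholds in either direction. There, 4 of 10 skeletal muscle genes were lower by them, namely Myog (log2 fold change −1.77), Actc1 (−0.69), Myh3 (−0.85) and Ttn (−0.78). So were 3 of 5 red blood cell genes tested, Hba-x (−1.35), Hbb-bh1 (−1.33) and Hbb-y (−1.04), and 1 of 12 smooth muscle and pericyte genes, Tpm2 (−0.73). The lowest edgeR adjusted p among these 8 genes was 0.478, that of Myog, and 0 of the endothelial, leukocyte, platelet and cartilage genes passed in that fit. All 6 red blood cell genes had a lower fitted level in AMD3100-treated eSMGs, with a median log2 fold change of −0.44 over all 6 libraries, and the groups overlapped for each of them. The sign of that median rested on control replicate 2, without which it was 0.21, and it ran from −0.96 to 0.21 with each library left out in turn. With the block it was −0.24, and Alas2, a heme synthesis gene, had a value of 0.44. C1qa, a complement gene of macrophages, was 6.11 times as high in the replicate 3 libraries as in the other 4, and it led the leukocyte list in those 2 libraries while Csf1r led it in the other 4. In the fit of all 6 libraries the 3 genes of each remaining list with the highest mean level over the 6 libraries did not pass. They were the leukocyte genes C1qa, Csf1r and Lyz2 (log2 fold changes −0.16, 0.02 and −1.05), the platelet genes Gp1bb, Itga2b and Pf4 (0.47, 0.05 and −1.73), the cartilage genes Col9a1, Col2a1 and Col11a1 (0.03, −0.40 and 0.31), the globin genes Hba-a1, Hbb-y and Hba-x (−0.34, −0.10 and −0.54), and the skeletal muscle genes Myog, Actc1 and Tnnt1 (−0.24, 0.13 and 0.47).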
